A study of Bos indicus and Bos taurus with 17 samples.

Results

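The genes described here are the subunits of the phagocyte NADPH oxidase and enzymes that remove the oxidants it makes, followed in cells from the milk of Kashmiri and Jersey cows. They were chosen by name, as 4 oxidase subunits (*CYBB*, *CYBA*, *NCF4* and *RAC2*) and 5 antioxidant genes (*SOD1*, *SOD2*, *CAT*, *GPX1* and *TXN*). Of these 9 symbols, 6 were found among the 21631 distinct names of the 61264 entries, namely all 4 subunits, *CAT* and *TXN*. *SOD1*, *SOD2* and *GPX1* were not found by name and were not analysed here. *CYBB* was carried by 2 entries, of which that with the higher mean was used, and the other ran from 0 FPKM in Kashmiri cows at D15 to 2.97 FPKM in Jersey cows at D90.

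The samples were milk cells captured on beads coated with an antibody to cytokeratin 18, an epithelial protein, from Kashmiri cows (the local breed) and Jersey cows at 15, 90 and 250 days in milk (D15, D90 and D250). The labels name 17 samples, 3 for each breed and day but 2 for Jersey at D90, from cows in lactation 2 or 3. All cows of the groups Kashmiri D90 and Jersey D250 were in lactation 2, and the other groups mixed both. The study's methods differ from the labels here, in giving all cows the same lactation number and a full set of samples for each day, taken from the cows selected in each breed, so lactation number is not used below. The labels give every sample of a day the same calendar month (March, July and December), so that day and season cannot be told apart. Each of the 6 groups had a single pooled Cuffdiff value per gene in FPKM, a count of fragments scaled for transcript length and for the size of the library. Values per library were not analysed here, so neither an error nor a test accompanies any ratio, and the number of reads behind a value is unknown.

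In neutrophils and macrophages the oxidase transfers electrons from NADPH across a membrane to oxygen and so makes superoxide, which is used against microbes. CYBB carries the electrons, CYBA holds it in the membrane, the NCF proteins assemble on them from the cytosol when the cell is activated, and RAC2 is the small GTPase of blood cells that switches the complex on. Superoxide is turned into hydrogen peroxide by superoxide dismutases, and the peroxide is removed by catalase (CAT), glutathione peroxidases and peroxiredoxins, the last of which are recharged by thioredoxin (TXN). Leukocytes enter milk in varying numbers, and many more neutrophils do so during infection of the udder.

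The labelled cell type was checked first, because the oxidase belongs to leukocytes. The 12 epithelial marker genes had a summed FPKM of 5923, 724 and 2663 in Kashmiri cows, taking the days in order, and of 2704, 101 and 1425 in Jersey cows. *KRT18*, the gene of the captured protein, was at 51.3, 9.13 and 11.5 FPKM in Kashmiri cows and at 33.7, 1.59 and 4.51 FPKM in Jersey cows. The 6 general leukocyte markers were present in every group, and their sum ran from 627 FPKM in Kashmiri cows at D15 to 3643 FPKM in Jersey cows at D250. Leukocyte RNA was thus present in all 6 groups. The sum of these 6 leukocyte genes was above that of the 12 epithelial genes in 3 groups, Kashmiri D90 (1488 FPKM), Jersey D90 (2286 FPKM) and Jersey D250. Both sums depend on the genes chosen, the epithelial one leaves out the milk protein genes, and neither gives a share of cells or RNA. The study's quantitative PCR at D90 found *KRT18* and *CSN2* higher, and *LSP1*, *HBA* and *CD18* lower, in captured than in unsorted milk cells. The epithelial entries of *KRT8* and *EPCAM* also hold another gene. In bulk RNA, fewer cells of a type and less RNA per cell cannot be told apart.

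**Figure D1:**
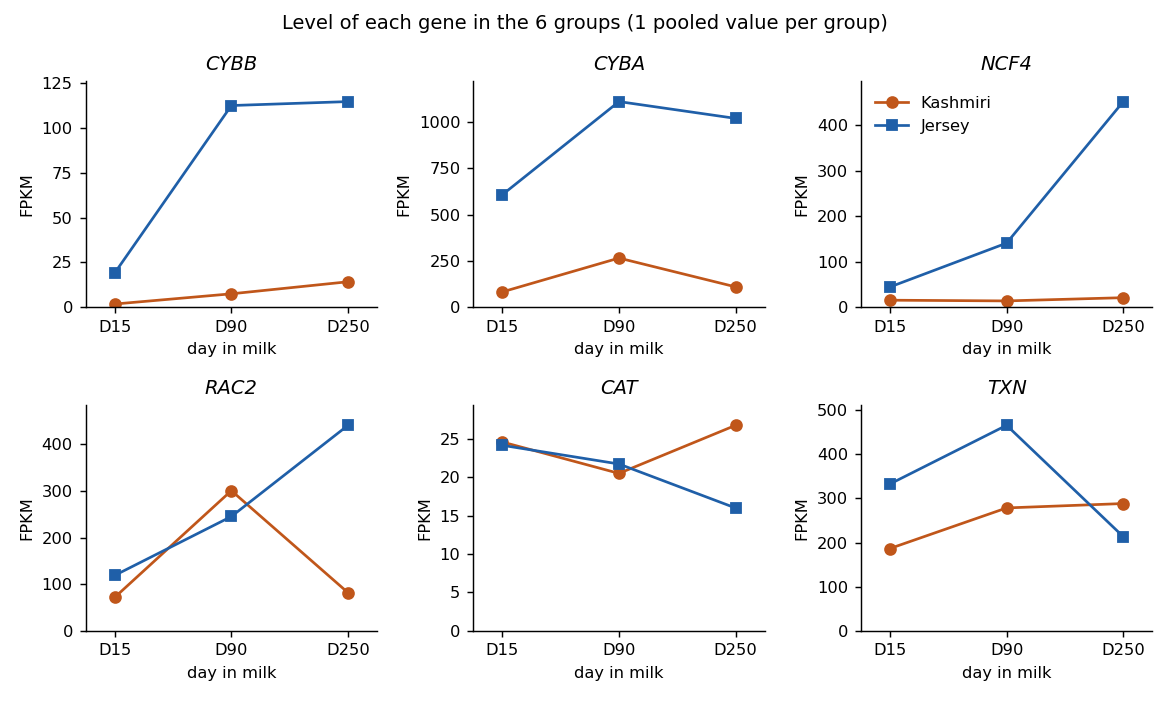
FPKM (y axis, from 0, a separate scale in each panel) of the 6 genes against day in milk, 1 pooled value per point, Kashmiri as circles and Jersey as squares. *CYBB*, *CYBA* and *NCF4* are higher in Jersey cows on each day, *RAC2* peaks at 301 FPKM in Kashmiri cows at D90, and *CAT* stays between 16.0 and 26.8 FPKM.

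*CYBB*, the catalytic subunit, was at 1.71, 7.41 and 14.1 FPKM in Kashmiri cows, taking the days in order, and at 19.0, 113 and 115 FPKM in Jersey cows. It had the widest range of the 6 genes, with the highest group 67.0 times the lowest. Its order was Jersey D250, D90 and D15 followed by Kashmiri D250, D90 and D15, so that the breeds did not overlap. The share of all genes without such overlap was not counted. Within Jersey cows, D90 and D250 were nearly level.

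*CYBA*, the partner of CYBB in the membrane, was the most abundant of the 4 subunits in 5 of the 6 groups. It was at 82.1, 265 and 109 FPKM in Kashmiri cows and at 607, 1111 and 1020.1 FPKM in Jersey cows. The lowest Jersey value was above the highest Kashmiri value here too. Although the proteins form a pair, the ratio of *CYBA* to *CYBB* on the FPKM scale was 47.9, 35.8 and 7.72 in Kashmiri cows and 31.9, 9.87 and 8.89 in Jersey cows, and thus was highest at D15 in both breeds.

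*NCF4*, a cytosolic subunit that binds a phagosomal membrane lipid, was at 15.2, 13.6 and 20.7 FPKM in Kashmiri cows and at 44.3, 141 and 452 FPKM in Jersey cows. Its lowest Jersey value was above its highest Kashmiri value as well. It was the only one of the 4 subunits lower at D90 than at D15 in Kashmiri cows, where its 3 values lay close together, while each later Jersey value was more than 3 times the one before (folds of 3.18 and 3.21).

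*RAC2* had another order of groups. It was at 71.7, 301 and 81.7 FPKM in Kashmiri cows and at 119, 245 and 441 FPKM in Jersey cows. The Kashmiri value at D90 was above the Jersey values at D90 and D15, so the breeds overlapped. Together the 4 subunits summed to 171, 587 and 226 FPKM in Kashmiri cows, of which *RAC2* held 42%, 51.3% and 36.2%, and to 789, 1609.8 and 2028 FPKM in Jersey cows, of which it held 15.1%, 15.2% and 21.7%.

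*CAT*, which breaks hydrogen peroxide into water and oxygen, was at 24.6, 20.5 and 26.8 FPKM in Kashmiri cows and at 24.2, 21.7 and 16.0 FPKM in Jersey cows. Its highest group was 1.67 times its lowest, the narrowest range of the 6 genes. *TXN*, which reduces disulfide bonds in other proteins, was at 187, 279 and 288 FPKM in Kashmiri cows and at 333, 466 and 213 FPKM in Jersey cows. Its highest group was 2.5 times its lowest, and the breeds overlapped for both genes.

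The comparison of the breeds asked how the milk cells of a high-yielding and a local breed differ on the same day. A gene was counted as past the limit when 1 FPKM was added to both values, their log2 ratio was then 2 or more above or below 0, and either group reached 1 FPKM. All 6 genes reached that level in every comparison. The added 1 FPKM makes the ratio of low genes smaller than the plain fold.

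At D15, 2 of the 6 genes were past the limit, both higher in Jersey cows, while 8.57% of the 11202 genes tested were past it, 6.45% higher and 2.12% lower. With a limit of 1, the count was 3 of 6, against 28.9% of all genes. *CYBB* was 11.1-fold and *CYBA* 7.40-fold higher in Jersey cows, with log2 ratios of 2.88 and 2.87. *NCF4* was 2.92-fold higher (log2 ratio 1.48), *TXN* 1.78-fold (0.83) and *RAC2* 1.66-fold (0.72), all under the limit. *CAT* had a log2 ratio of -0.02. The median log2 ratio of the 4 subunits was 2.18, against -0.13 for all genes tested.

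At D90, 3 of the 6 genes were past the limit and higher in Jersey cows, with 11.7% of the 11209 genes tested past it, 6.58% higher and 5.17% lower. With a limit of 1 the same number of genes, 3, was counted, against 32.9% of all genes. *CYBB* showed the widest gap, 15.2-fold (log2 ratio 3.75), and 1.46% of all genes tested had a higher ratio. *NCF4* was 10.4-fold higher (3.28) and *CYBA* 4.19-fold higher (2.06), although *CYBA* dropped below the limit, at 1.93, when FPKM were rescaled by their upper quartile. *RAC2*, by contrast, was slightly lower in Jersey than in Kashmiri cows, with a log2 ratio of -0.29 that turned to 0.05 when FPKM were rescaled to their sum without the milk protein genes. The median of the 4 subunits was 2.67, against -0.03 for all genes. The log2 ratio was 0.74 for *TXN* and 0.08 for *CAT*.

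At D250, 4 of the 6 genes were past the limit, which were all 4 subunits and all higher in Jersey cows, while 12.3% of the 11642 genes tested were past it, 10.9% higher and 1.37% lower. With a limit of 1 the count was also 4, against 34.5% of all genes. *NCF4* was 21.8-fold higher (log2 ratio 4.38), *CYBA* 9.34-fold (3.21), *CYBB* 8.11-fold (2.93) and *RAC2* 5.4-fold (2.42). *RAC2* was under the limit with either rescaling, at 1.92 by the upper quartile and 1.66 by the sum without milk protein genes, which moved the median of all genes from -0.10 to -0.52 and -0.74. The antioxidant genes found stood below 0, *CAT* at -0.71 (1.67-fold higher in Kashmiri cows) and *TXN* at -0.43 (1.35-fold higher in Kashmiri cows). Of all genes tested, 46.2% were above 0, so a ratio below 0 was not unusual. A lower ratio than that of *CAT* was seen in 22.2% of all genes, and than that of *TXN* in 35.5%.

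**Figure D2:**
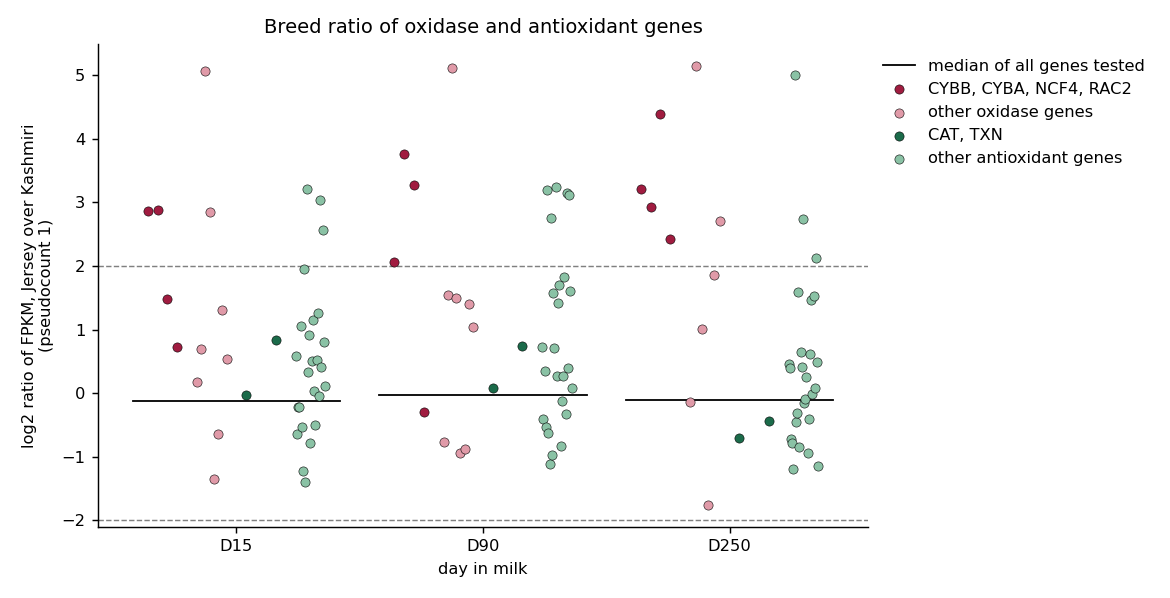
Log2 ratio of FPKM, Jersey over Kashmiri with a pseudocount of 1 (y axis), at each day in milk (x axis), 1 point per gene with at least 1 FPKM in either breed, with the limits of 2 and -2 dashed and the median of all genes tested as a bar. The 4 subunits have medians of 2.18, 2.67 and 3.07 at D15, D90 and D250, and no gene of the 4 lists drawn lies below -2.

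The other genes of the complex were taken from a list of 15 oxidase genes, all found, of which 8, 8 and 6 had at least 1 FPKM in either breed at D15, D90 and D250. Of these, 2, 1 and 2 were past the limit (25%, 12.5% and 33.3%), all higher in Jersey cows, against 8.57%, 11.7% and 12.3% of all genes, with median log2 ratios of 0.61, 1.21 and 1.43. *NCF1*, the organiser subunit that carries the complex to the membrane, was at 7.82, 27.2 and 27.3 FPKM in Kashmiri cows and at 296, 971 and 1002 FPKM in Jersey cows, or 37.8-fold, 35.7-fold and 36.7-fold higher. *NCF1* had 2 entries, and copies of a near-identical sequence could share its reads. The breed ratio of *NCF1* thus lay near the same value on each day, while that of *NCF4* was largest at D250. *RAP1A*, a small GTPase that copurifies with the membrane subunits, was past the limit at D250, with 69.1 FPKM in Kashmiri and 456 FPKM in Jersey cows.

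The oxidases of other tissues had values at or near 0, which can be failed estimates in a table without read counts and are not read as absence. Chosen after their values were seen, *NOX1*, *NOX5*, *DUOX1* and *DUOX2* had at most 0.192 FPKM in any group, and *NOX4* was listed at 0 in all 6. *NOXA1*, an activator of the epithelial oxidase and likewise chosen after its values were seen, went the other way from the phagocyte subunits, with 13.5, 3.44 and 6.39 FPKM in Kashmiri cows and 4.70, 1.31 and 1.19 FPKM in Jersey cows.

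Marker genes of leukocytes differed between the groups too. The summed FPKM of the 12 neutrophil markers found was 192, 514 and 641 in Kashmiri cows and 5078, 5928 and 14516 in Jersey cows. From D90 to D250 in Kashmiri cows the subunit sum was lower (587 and 226 FPKM) while the neutrophil sum was higher. Of the subunits, *RAC2* (301 and 81.7 FPKM) and *CYBA* (265 and 109 FPKM) were lower. *CYBB* (7.41 and 14.1 FPKM) and *NCF4* (13.6 and 20.7 FPKM) were higher. Of the 10, 9 and 10 neutrophil markers tested, 9 were past the limit and higher in Jersey cows on each day, with 0 lower. The shares are 90%, 100% and 90%, against 6.45%, 6.58% and 10.9% of all genes past the limit and higher. *S100A12* and *S100A8*, which encode calcium-binding proteins abundant in neutrophils, had the highest values, with 4014 and 3034 FPKM in Jersey cows at D250 against 294 and 106 FPKM in Kashmiri cows. *MMP8* and *CD177*, both found in neutrophils, stayed at or below 0.441 FPKM in every group. The 11 macrophage markers summed to 116, 501 and 505 FPKM in Kashmiri cows and to 1068, 2335 and 2760.3 FPKM in Jersey cows. Of the 10 tested on each day, 8, 5 and 2 were past the limit at D15, D90 and D250 and higher in Jersey cows. These are 80%, 50% and 20%, against the same 6.45%, 6.58% and 10.9% of all genes. At D250, however, 4 of the 10 macrophage markers tested had a ratio below 0, all 4 named after their values were seen. These were *MSR1* (46.7 FPKM in Kashmiri and 21.9 FPKM in Jersey cows) and 3 complement genes. The complement genes were *C1QA* (24.2 FPKM in Kashmiri and 12 FPKM in Jersey cows), *C1QB* (17.3 and 10.4 FPKM) and *C1QC* (14.8 and 6.80 FPKM). Within Jersey cows the 3 complement genes were 12.1-fold, 9.40-fold and 21.2-fold lower at D250 than at D15. They were the only 3 of the 10 macrophage markers tested there that were past the limit and lower, while 2 were past it and higher. Of the 10, 6 were above 0 (median log2 ratio 0.76). Of all genes, 3.42% were past the limit and lower and 9.17% higher. *CD68*, a lysosomal protein of macrophages, was at 11.4, 281 and 268 FPKM in Kashmiri and at 169, 1211 and 995.5 FPKM in Jersey cows. The entry of *ADGRE1*, which also holds *VAV1*, gave 909 FPKM of the Jersey sum at D250. The part of these cells in the oxidase ratios was not tested.

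*RAC2*, which T cells also express, had its Kashmiri peak on the day when T cell markers were highest. The 8 T and NK cell markers summed to 357, 1507 and 345 FPKM in Kashmiri cows and to 244, 158 and 88.2 FPKM in Jersey cows. At D90, 7 of the 8 were past the limit and lower in Jersey cows, against 5.17% of all genes. *CD3E*, a chain of the T cell receptor complex, was at 146, 659 and 135 FPKM in Kashmiri cows and at 65.5, 31.7 and 19.5 FPKM in Jersey cows. *RAC2* was 0.201, 0.20 and 0.237 times the T and NK cell sum on the 3 days in Kashmiri cows, and 0.487, 1.55 and 5.0 times that sum in Jersey cows. Thus *RAC2* and the T cell sum kept nearly the same ratio in Kashmiri cows, and moved apart from D15 to D250 in Jersey cows. The B cell sum (16.0, 78.0 and 29.8 FPKM) and the general leukocyte sum (627, 1488 and 668 FPKM) were highest at D90 in Kashmiri cows as well, and the part of any of these cells in the *RAC2* values was not tested.

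**Figure D3:**
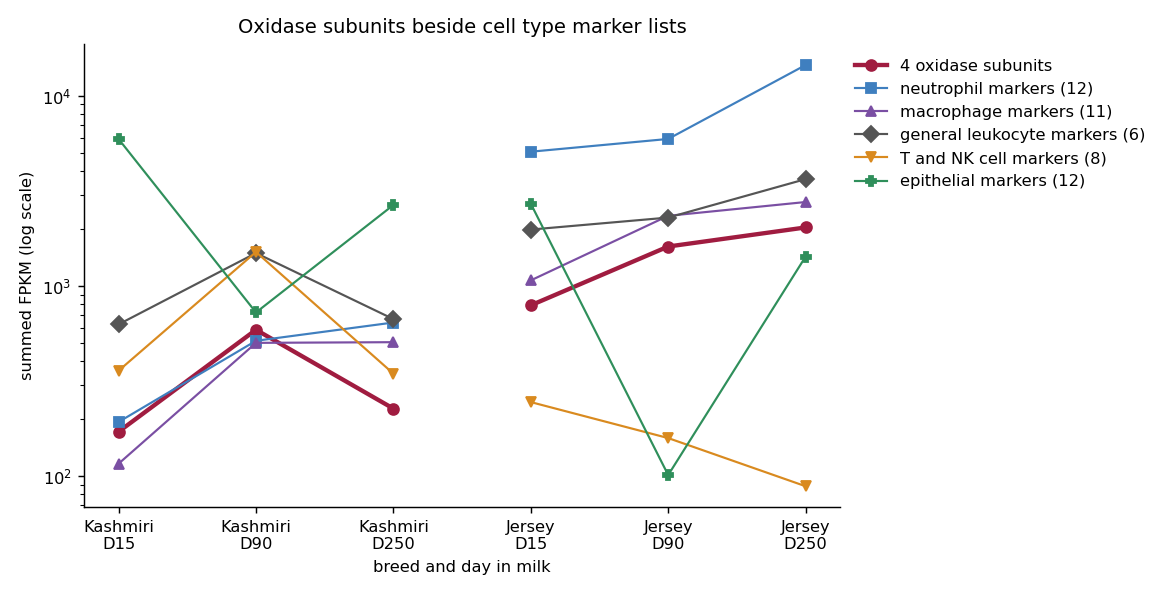
Summed FPKM (y axis, log scale) of the 4 oxidase subunits and of 5 marker lists in the 6 groups (x axis), with the number of genes found in brackets and 1 pooled value per point. The oxidase sum runs from 171 to 2028 FPKM, the neutrophil sum from 192 to 14516 FPKM, and the T and NK cell sum peaks at 1507 FPKM in Kashmiri cows at D90.

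To set the subunits against leukocyte RNA, each was divided by the summed FPKM of *PTPRC*, *ITGB2*, *LSP1*, *CD53*, *CORO1A* and *LCP1*, the 6 general leukocyte markers, a choice made after the data were seen. On this scale the sum of the 4 subunits was 0.272, 0.395 and 0.338 in Kashmiri cows and 0.399, 0.704 and 0.557 in Jersey cows. The breed ratio was then 1.47, 1.78 and 1.65 at D15, D90 and D250, in place of 4.63, 2.74 and 8.98 for the plain sum. The base was not uniform at D90, where 3 of the 6 markers were higher and 3 lower in Jersey cows (median log2 ratio -0.05) and the sum was higher through *LCP1* (191 and 780 FPKM) and *CD53* (223 and 639 FPKM). *CYBB* was 3.52-fold, 9.88-fold and 1.49-fold higher in Jersey cows per leukocyte marker, and *CYBA* 2.35-fold, 2.73-fold and 1.71-fold. *NCF4* was 0.925 times its Kashmiri value at D15 and 6.74 and 4.0 times it at D90 and D250. *RAC2* was lower in Jersey cows at D15 and D90, at 0.526 and 0.531 times the Kashmiri value. At D250 *RAC2* was nearly level, at 0.989 times. Genes in general were also lower in Jersey cows on this base, with medians of -1.50, -0.56 and -1.93 (log2) at D15, D90 and D250. *NCF4* at D15 and *RAC2* at D15 and D250 lay above these medians, and *RAC2* at D90 lay below. A value under 1 here is thus not by itself a result about *RAC2* or *NCF4*.

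Against the neutrophil markers the summed subunits had the opposite direction. The sum of the 4 subunits over the neutrophil sum was 0.889, 1.14 and 0.352 in Kashmiri cows and 0.155, 0.272 and 0.140 in Jersey cows, so that it was lower in Jersey cows on each day. *CYBB* at D90 was an exception, 1.32-fold higher in Jersey cows on this scale. Against the macrophage markers, the ratio was 1.47, 1.17 and 0.447 in Kashmiri cows and 0.739, 0.689 and 0.735 in Jersey cows, lower in Jersey cows at D15 and D90 and higher at D250. The share of all genes was not computed on the macrophage base. The direction of the breed ratio therefore depended on the marker list used as the base, and is not read as a result about the subunits.

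**Figure D4:**
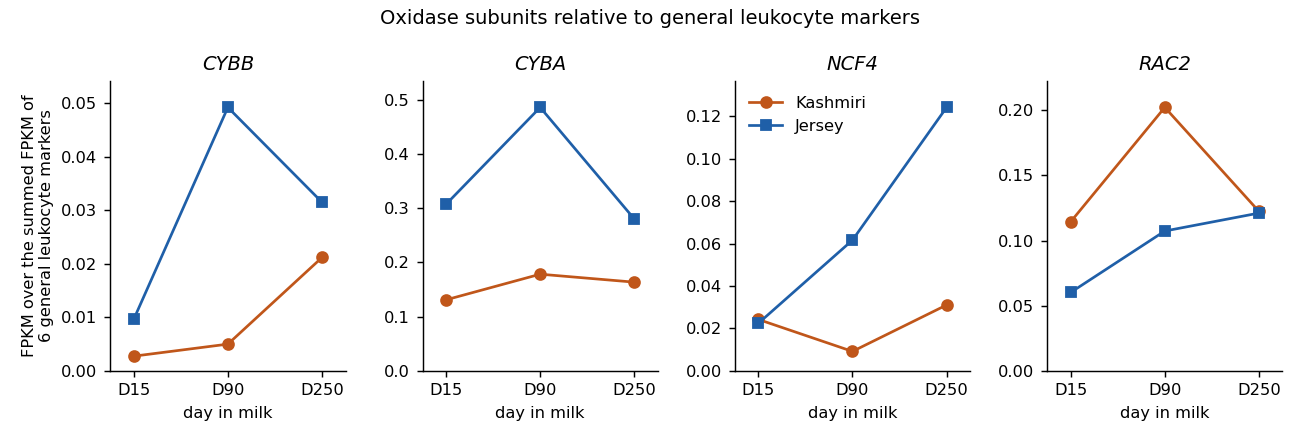
FPKM of each of the 4 subunits divided by the summed FPKM of the 6 general leukocyte markers (y axis, from 0, a separate scale in each panel) against day in milk, 1 pooled value per point, Kashmiri as circles and Jersey as squares. *CYBB* and *CYBA* stay above the Kashmiri line in Jersey cows, *NCF4* reaches 0.124 in Jersey cows at D250, and *RAC2* is highest in Kashmiri cows at D90, at 0.202.

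The comparisons of days asked how expression moved over lactation in each breed, and the 3 ratios of a breed share their groups. In Kashmiri cows, *RAC2* alone was past the limit between D15 and D90, 4.2-fold higher at D90 (log2 ratio 2.05), with 7.5% of the genes tested past it, 2.34% higher and 5.16% lower. A limit of 1 counted 3 of the 6, against 33.5% of all genes. *CYBA* was 3.23-fold (1.68) and *CYBB* 4.33-fold higher (1.63), and the plain log2 ratio of *CYBB*, without a pseudocount, was 2.11. Between D90 and D250, 0 of the 6 genes were past the limit, as against 1.98% of all genes, 0.859% higher and 1.12% lower. A limit of 1 counted 2, against 17.7%. *RAC2* was 3.68-fold lower at D250 (log2 ratio -1.87), with 1.42% of all genes lower still, and *CYBA* was 2.43-fold lower (-1.27), while *CYBB* was 1.91-fold higher (0.85). Between D15 and D250, *CYBB* alone was past the limit, 8.26-fold higher at D250 (2.48), with 4.05% of all genes past it, 1.85% higher and 2.2% lower. The count was also 1 with a limit of 1, against 25.7%.

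In Kashmiri cows, *CAT* lay between log2 ratios of -0.25 and 0.37 over the 3 comparisons of days, and *TXN* between 0.05 and 0.63. The leukocyte lists moved over the same days, with all 6 general markers above 0 between D15 and D90 (median log2 ratio 1.34). Of the 8 T and NK cell markers, 5 were past the limit and higher at D90, against 2.34% of all genes. All 12 epithelial markers had a ratio below 0 between D15 and D90, with a median of -2.03, and all 12 were above 0 between D90 and D250, with a median of 1.64.

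In Jersey cows, *CYBB* alone was past the limit between D15 and D90, 5.92-fold higher at D90 (log2 ratio 2.5), with 6.76% of the genes tested past it, 2.98% higher and 3.78% lower. A limit of 1 counted 3 of the 6, against 29.8% of all genes. *NCF4* was 3.18-fold (1.65), *RAC2* 2.06-fold (1.04) and *CYBA* 1.83-fold higher (0.87). Between D90 and D250, 0 of the 6 genes were past the limit, against 4.18% of all genes, 3.72% higher and 0.466% lower. A limit of 1 counted 2, against 20.9%. *NCF4* was 3.21-fold higher at D250 (1.68) and *TXN* was 2.18-fold lower (-1.12), a lower ratio than that of 96.9% of the genes tested. *CYBA* and *CYBB* were nearly level, at -0.12 and 0.03. Between D15 and D250, *NCF4* (10.2-fold, 3.32) and *CYBB* (6.03-fold, 2.53) were past the limit and higher at D250, with 12.6% of all genes past it, 9.17% higher and 3.42% lower. Lowering the limit to 1 gave 3, against 42.4%. *RAC2* was 3.71-fold higher (1.88), just under the limit, and *CAT* was 1.51-fold lower (-0.57). *CAT* was below 0 in all 3 comparisons of days in Jersey cows. The marker lists differed over these days as well, with all 12 epithelial markers below 0 between D15 and D90 (median -3.73, 9 past the limit) and 11 of 12 above 0 between D90 and D250 (median 1.44, 5 past the limit), when the neutrophil sum went from 5928 to 14516 FPKM. Their part in the ratios between days was not tested in either breed.

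**Figure D5:**
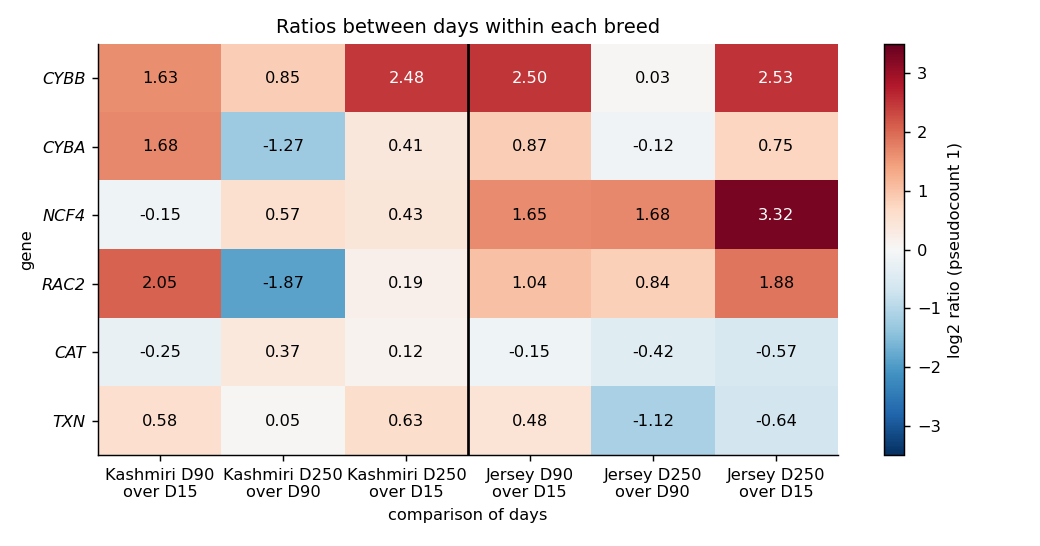
Log2 ratio of FPKM, later over earlier day with a pseudocount of 1 (colour and printed value), for the 6 genes (rows) in the 3 comparisons of days of each breed (columns, Kashmiri left of the line). *RAC2* goes from 2.05 to -1.87 over the successive intervals in Kashmiri cows and from 1.04 to 0.84 in Jersey cows, and *NCF4* reaches 3.32 in Jersey cows between D15 and D250.

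The enzymes on the antioxidant side were taken from a list of 29 further genes, of which 28 were found. Between the breeds, 25, 25 and 26 of them had at least 1 FPKM in either group at D15, D90 and D250, and 3, 5 and 3 were past the limit, all higher in Jersey cows. These are 12%, 20% and 11.5% of those tested, against 8.57%, 11.7% and 12.3% of all genes, so that at D250 the share was below that of all genes. Their median log2 ratio was 0.41, 0.39 and 0.18, with 16 of 25, 17 of 25 and 14 of 26 above 0. For all genes tested the median was -0.13, -0.03 and -0.10, with 43.3%, 48.5% and 46.2% above 0. Between the days, at most 4 of them (16%, from D15 to D90 in Jersey cows, against 6.76% of all genes) were past the limit in any comparison.

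Thioredoxin works with a reductase and is bound by the protein TXNIP, which blocks it. *TXNIP* was past the limit and higher in Jersey cows on each day, with 63.9, 113 and 119 FPKM in Kashmiri cows and 385, 988 and 522 FPKM in Jersey cows. The ratio of *TXN* to *TXNIP* on the FPKM scale was 2.92, 2.47 and 2.43 in Kashmiri cows and 0.865, 0.471 and 0.408 in Jersey cows, so that *TXN* was above *TXNIP* in all Kashmiri groups and below it in all Jersey groups. *TXNRD1*, the cytosolic reductase, was at 25.6, 34.7 and 48.6 FPKM in Kashmiri cows and at 45.6, 108 and 68.6 FPKM in Jersey cows, under the limit on each day. *SRXN1*, which repairs overoxidised peroxiredoxins, was past the limit at D15 (2.78 against 30.2 FPKM) and at D90 (17.0 against 159 FPKM).

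The 6 peroxiredoxins did not move together. *PRDX1* and *PRDX5* were the most abundant, *PRDX1* with 188, 371 and 395 FPKM in Kashmiri and 417, 1211 and 473 FPKM in Jersey cows, and *PRDX5* with 448, 204 and 202 FPKM in Kashmiri and 1077, 726 and 558 FPKM in Jersey cows. *PRDX2* was at 164, 141 and 102 FPKM in Kashmiri cows and at 167, 78.9 and 52.7 FPKM in Jersey cows. *PRDX3*, the mitochondrial member, lay between 21.0 and 32.0 FPKM in all groups and *PRDX6* between 69.6 and 114 FPKM. None of the 6 was past the limit between the breeds on any day.

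On the glutathione side, *GPX3*, the secreted peroxidase, was at 3.05, 5.46 and 2.69 FPKM in Kashmiri cows and at 7.41, 58.0 and 118 FPKM in Jersey cows, past the limit at D90 and D250 with log2 ratios of 3.19 and 5.01. *GSR*, the glutathione reductase that uses NADPH, was past it at D90 only (7.60 against 57.4 FPKM), with a log2 ratio of 1.96 at D15 and 14.6 against 46.1 FPKM at D250. *GPX4* was listed at 0 in 3 groups and reached at most 0.0790 FPKM, and since an exact 0 can be a failed estimate, no ratio is given for it. *NFE2L2*, the transcription factor that drives many antioxidant genes, was at 9.30, 12.3 and 27.2 FPKM in Kashmiri cows and at 18.4, 125 and 187 FPKM in Jersey cows, past the limit at D90 and D250. *HMOX1*, an enzyme that breaks down haem and a target of that factor, was past it at D15 alone, with 15.1 against 149 FPKM.

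The genes whose levels were most like those of each member were sought among 7453 other named genes with at least 1 FPKM in every group, by the Pearson correlation of log2(FPKM + 1) over the 6 groups. These points share the breed and the day, and the correlations are descriptions only. *STX2* (r = 0.997), *ATP6V0A1* and *ERO1A* (both 0.996) were most like *CYBB*, and *C16orf54* (0.997), *COTL1* (0.995) and *PCMT1* (0.991) most like *CYBA*. For *NCF4* they were *TDRD7* (0.999), *NPC1* (0.996) and *LRRK2* (0.996), and for *RAC2* they were *CLCF1* (0.992), *ELMO2* (0.987) and *GALNT10* (0.985). *TUFT1* (0.983), *MRPL48* (0.979) and *MCUR1* (0.970) were most like *CAT*, and *PLD3* (0.979), *FAM96B* (0.967) and *BCDIN3D* (0.958) most like *TXN*. No gene was named for more than 1 member.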

How the data were processed

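Milk cells of 17 labelled samples were sequenced by the authors from stranded poly-A libraries. Per the study's methods, reads trimmed in Trimmomatic were aligned to the bovine assembly UMD3.1 (Bowtie, TopHat), and Cufflinks and Cuffdiff gave the gene levels. The deposited values are FPKM made by the authors, 1 per entry and group of breed and stage, and the column named as local was read as Kashmiri. FPKM summed to 533249 in the group Kashmiri D250 and to 900667 in Jersey D250.

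The genes and lists were chosen with earlier results of these data known. A repeated name was read from the entry with the highest mean, and a joined name by its parts, so the entries of *CSF3R*, *ADGRE1*, *KRT8* and *EPCAM* hold other genes too. Ratios used a pseudocount of 1 FPKM, a minimum of 1 FPKM in either group and a limit of 2 on the log2 scale, in 9 comparisons. Every member was named. Of the other oxidase and antioxidant genes, those past the limit between the breeds were named, with the peroxiredoxins, *TXNRD1* and *GPX4* as close in function, and of a marker list up to 2 with the highest FPKM. *KRT18*, *MMP8*, *CD177*, *ADGRE1*, *LCP1*, *CD53*, *GSS*, *MSR1* and the C1Q genes were chosen after their values were seen. The alternatives were another pseudocount, no minimum, a limit of 1, 2 rescalings, centring on the median and summing repeated entries, and after the data were seen rescaling to leukocyte or neutrophil markers. Ratios were computed in Python 3.11.15 with pandas 2.3.3 and numpy 2.4.6, and drawn with matplotlib 3.10.9. The markers of B cells and red blood cells were also summed, from 8.44 to 78.0 FPKM and from 0.112 to 0.986 FPKM over the groups. The study's own tests were not used here. The values of 1 further gene of the oxidase list are not reported here.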

Additional observations from a re-analysis of the deposited data

How the results depend on the processing

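No paired analysis was possible because the table holds 1 value per group, and for the same reason no replicate could be left out and no depth is known. With no minimum, centring and summed repeated entries, the counts of genes past the limit did not change. With the upper quartile, 2 rather than 3 genes were counted between the breeds at D90, with 5.95% of all genes past the limit and higher and 5.93% lower. At D250 it counted 3 rather than 4, with 7.99% of all genes higher and 2.83% lower. The sum without milk protein genes gave the latter count too, with 6.84% higher and 5.16% lower. A pseudocount of 0.1 FPKM raised the count between D15 and D90 in Kashmiri cows from 1 to 2, with *CYBB* added. The share of all genes rose as well, from 2.34% to 5.44% higher and from 5.16% to 9.12% lower. A limit of 1 on the log2 scale gave 3 genes between D15 and D90 in each breed, against 33.5% of all genes in Kashmiri and 29.8% in Jersey cows. It gave 2 between D90 and D250 in each breed, against 17.7% and 20.9%. Of the 54 log2 ratios of single genes, 18 moved by over 0.58 with the sum without milk protein genes, and 0 did so with the other settings named so far.

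FPKM were also rescaled to the general leukocyte markers, a choice made after the data were seen. Then 0, 2 and 2 genes were counted between the breeds on the successive days. At D15, 27% of all genes tested were past the limit and lower, and 1.52% higher. The 2 genes at D90 were higher in Jersey cows, with 4.04% of all genes higher and 8.56% lower. The 2 at D250 were *CAT* and *TXN*, both lower in Jersey cows, with 47.2% of all genes tested also past the limit and lower (median log2 ratio -1.93). The count was 0 between D15 and D90 in Kashmiri cows, with 21.1% of all genes past the limit and lower and 0.581% higher. It was 1, higher at D250, between D15 and D250 in Jersey cows, against 3.6% of all genes higher and 11.3% lower. The log2 ratio of *RAC2* between the breeds at D250 turned to -0.015. With FPKM rescaled to the neutrophil markers, also chosen later, 4, 3 and 3 genes were counted between the breeds at D15, D90 and D250, all lower in Jersey cows. This rescaling moved all genes alike, with 85.1%, 76.3% and 80.9% of them past the limit and lower and medians of -4.23, -2.99 and -3.49, so these counts and signs are not results about the members. The log2 ratios then became -1.20 for *CYBB* and -1.84 for *CYBA* at D15, -1.46 for *CYBA* and -0.15 for *NCF4* at D90, and -1.46 for *CYBB*, -1.27 for *CYBA*, -0.053 for *NCF4* and -2.06 for *RAC2* at D250, while *CYBB* at D90 stayed above 0, at 0.39. Between days in Kashmiri cows, the count with this rescaling was 0 between D15 and D90 and between D15 and D250. Of all genes, 27.9% and 35.1% were past the limit and lower there, and 1.17% and 1.3% higher. Between D90 and D250 the count was 1, lower at D250, against 3.06% of all genes lower and 1.73% higher. In Jersey cows it was 1 between D90 and D250, against 4.08% of all genes lower and 0.667% higher. It was also 1 between D15 and D250, against 21.2% lower and 1.67% higher. In both of these the gene was lower at D250.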

Other observations

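The ratio of *NCF1* to *CYBB* on the FPKM scale was 4.56, 3.66 and 1.93 on the successive days in Kashmiri and 15.5, 8.62 and 8.73 in Jersey cows.

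*GSS*, glutathione synthetase, singled out after its values were seen, was at 162, 14.9 and 31.3 FPKM on the successive days in Kashmiri cows, and at 61.0, 7.06 and 17.0 FPKM in Jersey cows. It was past the limit and lower at D90 than at D15 in both breeds, with log2 ratios of -3.36 and -2.94. The epithelial marker sum was lowest at D90 in both breeds as well, and its part in these values was not tested.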
